A study of Mus musculus with 12 samples.

Results

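The 9 genes described here carry prostaglandin signalling from release of its fatty acid substrate to breakdown of the product. They were taken by symbol: Pla2g4a, Ptgs1, Ptgs2, Ptges, Ptges2, Ptgis, Ptger2, Ptger4 and Hpgd. All 9 had an Ensembl ID among the 57010 IDs of the count tables. The low-count filter of the fit kept 14253 genes, and 8 of the 9 were among them. Ptger2 was listed at 0 in all 12 libraries.

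RNA was counted by poly(A)-selected sequencing in primary chondrocytes of the mouse, the cells that make cartilage matrix, with the genotype Wild type in every group. The labels give 4 libraries of treatment Control, 4 of treatment WT and 4 of treatment SIRT5F101L mutant. Cells of the last pair of groups were transfected with a plasmid labelled Wildtype, whose insert the labels do not name, or with a SIRT5F101L mutant one. SIRT5 is a mitochondrial enzyme that removes acyl groups from lysines. What the control cells received, the age and strain of the mice, and whether libraries came from separate cultures are not given in the sources used here, so p-values measure only the spread between these libraries, which may be technical.

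Prostaglandins are made when a phospholipase A2 frees arachidonic acid from membrane lipids and a cyclooxygenase turns it into prostaglandin H2. Terminal synthases then make prostaglandin E2, prostacyclin or other prostanoids, which act on G protein-coupled receptors of nearby cells. In cartilage, prostaglandin E2 made through inducible cyclooxygenase is a known mediator of inflammation and pain in osteoarthritis.

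Control libraries held 18233484 to 19905485 counts, libraries labelled WT 15288294 to 19713318, and libraries labelled SIRT5F101L 15095357 to 24242139. Sirt5 itself had 9 to 16 counts in control libraries, 1 to 9 in those labelled WT and 9 to 19 in those labelled SIRT5F101L. Its log2 fold change was -0.86 (edgeR adjusted p 0.143) for WT and 0.03 (edgeR adjusted p 0.954) for SIRT5F101L, so no rise of Sirt5 was detectable, and groups are named by their labels throughout. SIRT5F101L replicate 1 lay beside libraries labelled WT on the second principal component (20.3, against -23.5 to -17.0 for the other SIRT5F101L libraries). That component held 5.66% of the variance. WT replicate 1, at -1.07 on it, lay apart from the other WT libraries, at 12.5 to 20.1. The first component (72.7%) set control, at -75.3 to -72.1, apart from all other libraries. On it SIRT5F101L replicate 1 was at 33.4, WT libraries at 34.3 to 37.3 and the other SIRT5F101L libraries at 40.0 to 40.7. Whether SIRT5F101L replicate 1 carries the right label was not tested, and a wrong label would change what every value of SIRT5F101L against WT means. Of 20716 protein-coding genes that GENCODE M21 places on chromosomes 1 to 19, 3916 were listed at 0 in all 12 libraries. These include genes of wide use such as Oxsr1, Gnpnat1 and Acaa1a, so a gene listed at 0 in every library is not shown to be silent. All 1113 protein-coding genes on X, Y and the mitochondrial genome were listed at 0 too.

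In both labelled groups the phospholipase gene Pla2g4a, both cyclooxygenase genes, the inducible prostaglandin E synthase gene Ptges and the receptor gene Ptger4 rose against control, while the prostacyclin synthase gene Ptgis and the dehydrogenase gene Hpgd fell. Of the 8 tested members, 5 rose, 2 fell and 1, Ptges2, did not pass the test in libraries labelled WT, and the same counts were found in libraries labelled SIRT5F101L. A called gene has a Benjamini-Hochberg adjusted p under 0.05 by edgeR's quasi-likelihood test over all genes. The share of all tested genes called was 56.8% for WT and 60.7% for SIRT5F101L, so a change against control was common in these data. In WT 28.7% of genes were called higher and 28.1% lower, and in SIRT5F101L 30.0% and 30.7%. The 7 called members did not overlap with control in any library, as 53.5% and 51.3% of all tested genes did not. At least 2-fold changes were less common, at 16.7% and 17.5% of tested genes, and 6 of the 8 members, all but Ptges2 and Ptger4, changed by that much in both groups. The median log2 fold change of the 8 members was 1.18 and 1.24, beside -0.01 and -0.02 over all tested genes. Both comparisons use the same control libraries.

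**Figure D1:**
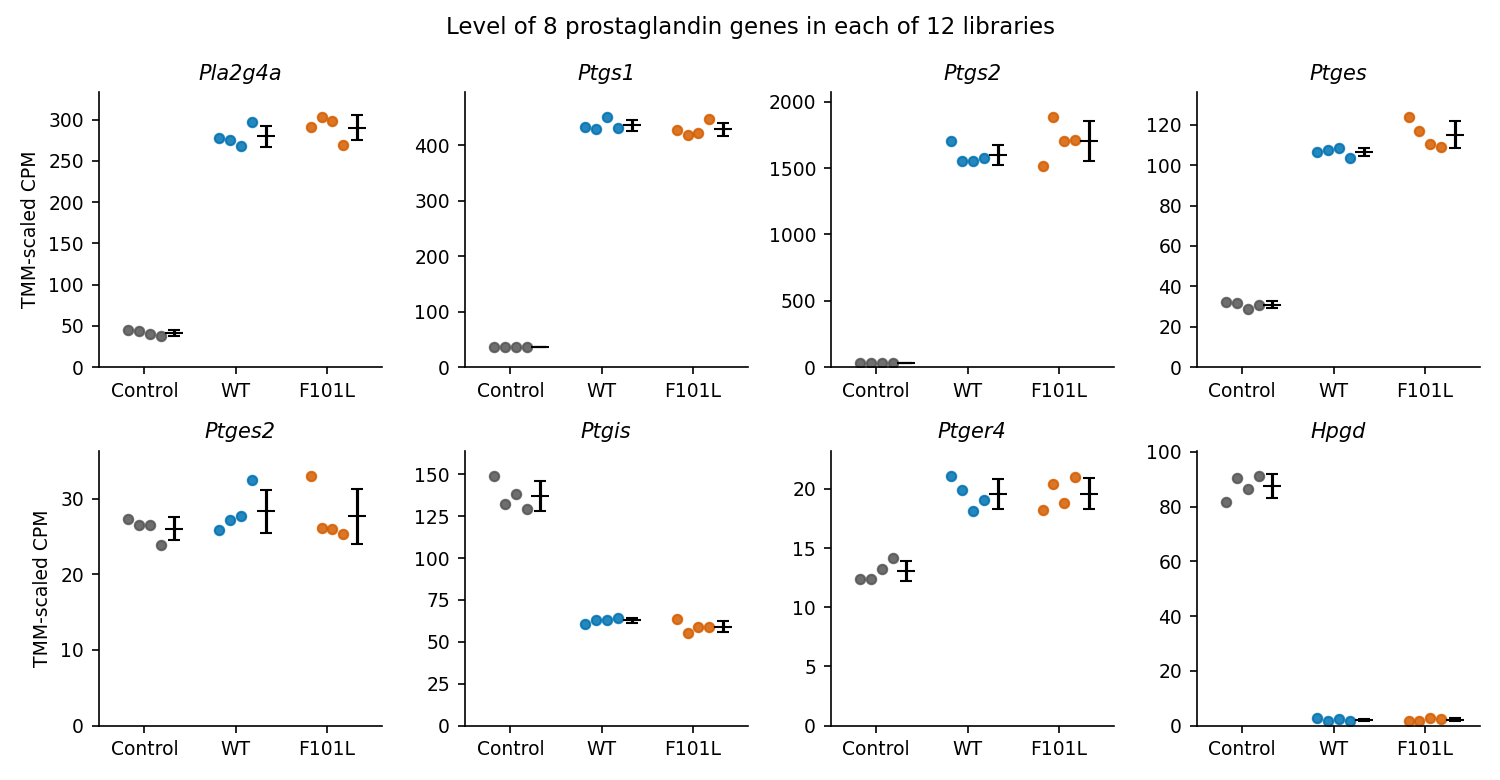
TMM-scaled CPM of 8 prostaglandin genes on the vertical axis, each panel with its own scale from 0, in 4 libraries each of control, WT and SIRT5F101L (written F101L on the axis); points are libraries in order of replicate number and the bar beside them is the mean and SD. Ptgs2 runs from 28.4 to 34.1 CPM in control and from 1516 to 1885 in SIRT5F101L libraries, while Hpgd is between 81.7 and 91.3 CPM in control and at most 2.66 in the other 8.

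Pla2g4a encodes cytosolic phospholipase A2 alpha, which releases arachidonic acid from membrane phospholipids. It was at 44.6, 44.1, 40.6 and 37.5 CPM in control replicates 1 to 4, where CPM is the gene's count scaled to a library total of 1000000 with TMM factors. Libraries labelled WT held 278, 275, 268 and 297 CPM, and libraries labelled SIRT5F101L 291, 303, 298 and 269 CPM. Every library of either labelled group lay above every control library. The mean rose from 41.7 ± 3.32 (SD, n = 4) to 280 ± 12.3 and 290 ± 15 CPM. This was a 6.71-fold rise in WT (log2 fold change 2.75, SE 0.07, edgeR adjusted p 1.43e-17) and a 6.96-fold rise in SIRT5F101L (2.80, SE 0.07, edgeR adjusted p 1.04e-17).

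Ptgs2 encodes cyclooxygenase-2, the inducible enzyme that inflammation switches on in many tissues. It had 505, 589, 534 and 624 counts in control libraries, or 29.3, 29.9, 28.4 and 34.1 CPM. Libraries labelled WT held 1708, 1556, 1554 and 1575 CPM, and libraries labelled SIRT5F101L 1516, 1885, 1707 and 1712 CPM. The control libraries form a narrow low group, and the highest and lowest values among the other 8 both belong to SIRT5F101L. Ptgs2 rose 52.5-fold in WT (log2 fold change 5.71, SE 0.09, edgeR adjusted p 3.28e-20) and 56.0-fold in SIRT5F101L (5.81, SE 0.09, edgeR adjusted p 1.90e-20). By fold change it ranked 31 from the highest of the 14253 tested genes in WT and 32 in SIRT5F101L. Its reads were 0.00270% to 0.00329% of all counts in control libraries, 0.158% to 0.176% in WT and 0.152% to 0.192% in SIRT5F101L.

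Ptgs1 encodes cyclooxygenase-1, usually described as the constitutive form of the enzyme. It was at 36.7, 35.8, 36.5 and 36.3 CPM in control, at 433, 428, 451 and 432 CPM in WT, and at 427, 419, 423 and 447 CPM in SIRT5F101L. The 4 control libraries lay within 1 CPM of each other, and no library of the labelled groups came near them. Ptgs1 rose 12-fold in WT (log2 fold change 3.59, SE 0.06, edgeR adjusted p 3.32e-20) and 11.8-fold in SIRT5F101L (3.56, SE 0.06, edgeR adjusted p 2.80e-20). Of its exon sequence, 3.81% is shared with a gene on the other strand. Both cyclooxygenase genes therefore rose, Ptgs2 by more. Per kb of transcript, the level of Ptgs2 was 0.502 to 0.605 times that of Ptgs1 in control libraries, 2.22 to 2.54 times in WT and 2.29 to 2.90 times in SIRT5F101L. Ptgs1 was the more abundant of the pair in every control library and Ptgs2 in every other library.

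Ptges encodes microsomal prostaglandin E synthase-1, the inducible enzyme that works together with cyclooxygenase-2 to make prostaglandin E2. It was at 32.5, 31.9, 29.0 and 30.5 CPM in control, 107, 108, 108 and 104 CPM in WT, and 124, 117, 110 and 109 CPM in SIRT5F101L. All 8 libraries of the labelled groups lay above control. Ptges rose 3.44-fold in WT (log2 fold change 1.78, SE 0.06, edgeR adjusted p 2.84e-15) and 3.71-fold in SIRT5F101L (1.89, SE 0.06, edgeR adjusted p 1.03e-15).

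Ptges2, for a second membrane-bound prostaglandin E synthase that is not known for induction by inflammation, gave values that overlapped between all groups. It averaged 26.0 ± 1.52 CPM (SD, n = 4) in control, 28.3 ± 2.88 in WT and 27.6 ± 3.62 in SIRT5F101L. Its log2 fold change was 0.12 in WT (95% interval -0.08 to 0.32, edgeR adjusted p 0.289) and 0.09 in SIRT5F101L (-0.11 to 0.29, edgeR adjusted p 0.448). SIRT5F101L replicate 1 was at 33 CPM against 25.3 to 26.1 in the other 3, and without it the value for SIRT5F101L was -0.01. Per kb, Ptges was 1.5 to 1.75 times the level of Ptges2 in control libraries, 4.36 to 5.63 times in WT and 5.11 to 6.10 times in SIRT5F101L.

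Ptgis encodes prostacyclin synthase, which draws on the same prostaglandin H2 as the prostaglandin E synthases. It was at 149, 132, 138 and 129 CPM in control, 60.6, 63.2, 62.9 and 64.4 CPM in WT, and 63.5, 55, 59.0 and 58.8 CPM in SIRT5F101L. Every control library was above every other library. Ptgis fell to 0.458 of its control level in WT (log2 fold change -1.13, SE 0.06, edgeR adjusted p 4.76e-12) and to 0.431 in SIRT5F101L (-1.21, SE 0.06, edgeR adjusted p 1.39e-12). Of its exon sequence, 6.08% is shared with a gene on the other strand. In bulk RNA, a change in the share of cells of a type and a change in RNA per cell cannot be told apart. This holds here and for all other genes that fell or rose. Per kb, Ptges was 0.121 to 0.140 times the level of Ptgis in control libraries, 0.929 to 1.02 times in WT and 1.07 to 1.23 times in SIRT5F101L, so that the control order, Ptgis well above Ptges, was not kept.

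The receptors of prostaglandin E2 among the members are Ptger2 (EP2) and Ptger4 (EP4), which both raise cyclic AMP through the stimulatory G protein. Ptger4 was at 12.4, 12.4, 13.2 and 14.2 CPM in control, 21.1, 19.9, 18.1 and 19.1 CPM in WT, and 18.2, 20.4, 18.8 and 21 CPM in SIRT5F101L. The lowest library of either labelled group lay above the highest control library. The rise was 1.5-fold in WT (log2 fold change 0.59, SE 0.09, edgeR adjusted p 1.21e-05) and 1.5-fold in SIRT5F101L (0.58, SE 0.09, edgeR adjusted p 1.10e-05), the smallest of the 5 rises. Of Ptger4 exon sequence, 16.5% is shared with genes on the other strand, Ttc33 among them, and 26.9% of its longest transcript has a copy of at least 95% identity in another gene's transcripts. The library kit named in the labels is not described as keeping strand. The strand setting of the counting program is not given in the sources used here. Reads from overlapping genes may therefore be among these counts, or Ptger4 reads may be missing from them.

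Hpgd encodes 15-hydroxyprostaglandin dehydrogenase, the enzyme that starts the breakdown of prostaglandin E2. It had 1406, 1787, 1622 and 1672 counts in control libraries, 54, 26, 40 and 34 in WT, and 32, 24, 66 and 46 in SIRT5F101L. In CPM these were 81.7, 90.6, 86.4 and 91.3 in control, 2.66, 1.67, 2.31 and 1.75 in WT, and 1.71, 1.56, 2.65 and 2.61 in SIRT5F101L. Groups did not overlap with control, and every library stayed above the floor of 3 counts. Hpgd was 41.2-fold lower in WT (log2 fold change -5.37, SE 0.14, edgeR adjusted p 1.80e-17) and 40.1-fold lower in SIRT5F101L (-5.33, SE 0.13, edgeR adjusted p 1.76e-17). By fold change it ranked 22 from the lowest of 14253 tested genes in WT and 23 in SIRT5F101L. No exon sequence of Hpgd, Ptgs2, Ptges, Ptges2 or Pla2g4a is shared with another gene in GENCODE M21.

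Ptgs2 and Hpgd moved the farthest in opposite directions. Per kb, Ptgs2 was 0.136, 0.125, 0.124 and 0.141 times the level of Hpgd in control replicates 1 to 4. The same ratio was 242, 353, 254 and 340 in WT and 335, 457, 244 and 248 in SIRT5F101L. No library of the labelled groups came near a control ratio. The SD of the Hpgd level itself was 22.6% of its mean in WT and 27% in SIRT5F101L.

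**Figure D2:**
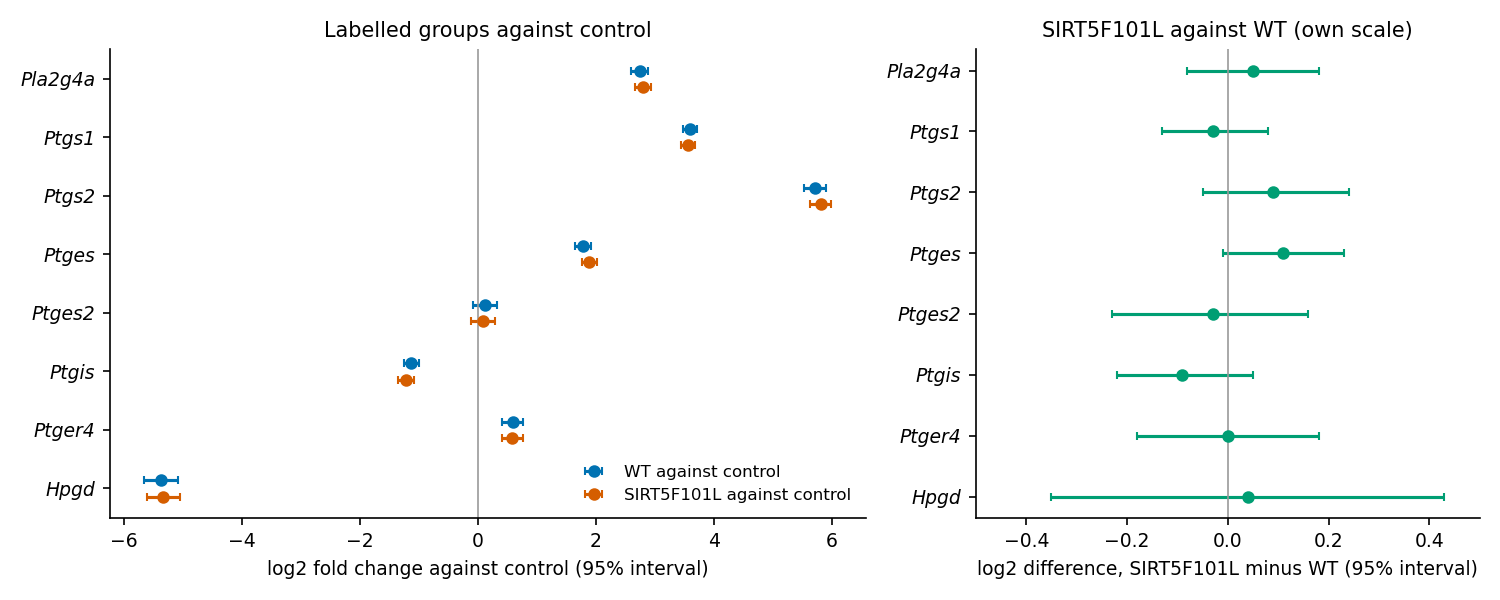
Log2 fold change of 8 prostaglandin genes from the fit of all 12 libraries, with its 95% interval, for WT and SIRT5F101L against control (left) and for SIRT5F101L minus WT on its own, finer scale (right). Against control the values run from -5.37 for Hpgd to 5.81 for Ptgs2, whereas no difference between SIRT5F101L and WT exceeds 0.11 in size and each of those intervals includes 0.

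Libraries labelled SIRT5F101L were also compared directly with those labelled WT. None of the 8 tested members was called by edgeR, where 0.0421% of all tested genes were, and none had an unadjusted p under 0.05, where 11.9% of all genes did. DESeq2 called 0 members too, where it called 43 of the 10760 genes it gave an adjusted p (0.400%), and 0 members had an unadjusted p under 0.05, where 6.71% of 25720 genes did. The differences were 0.05 for Pla2g4a (95% interval -0.08 to 0.18), 0.09 for Ptgs2 (-0.05 to 0.24), -0.03 for Ptgs1 (-0.13 to 0.08) and 0.11 for Ptges (-0.01 to 0.23) on the log2 scale. For Ptgis the difference was -0.09 (-0.22 to 0.05), and the intervals were -0.23 to 0.16 for Ptges2, -0.18 to 0.18 for Ptger4 and -0.35 to 0.43 for Hpgd. These intervals bound the size of a difference and do not show that the genes are alike in both groups. Ptges was the 1 member of 8 whose groups did not overlap, at 104 to 108 CPM in WT and 109 to 124 in SIRT5F101L, where 4.02% of all tested genes show no overlap. Without SIRT5F101L replicate 1 its difference was 0.07, and that of Ptgs2 was 0.15. With that library left out edgeR called 2213 of 14528 tested genes in this comparison and 0 of the 8 members. In that fit 1 member had an unadjusted edgeR p under 0.05. The share of all genes under it was not counted there, so that 1 cannot be weighed.

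Levels of different genes were compared per kb of the longest transcript. In control libraries the order was Ptgis (65.1 ± 4.23 CPM per kb; SD, n = 4), Hpgd (52.0 ± 2.65), Ptgs1 (12.7 ± 0.131), Pla2g4a (12.1 ± 0.961), Ptges (8.5 ± 0.421), Ptgs2 (6.83 ± 0.563), Ptges2 (5.23 ± 0.305) and Ptger4 (3.46 ± 0.221). Of these neighbours, Ptgs1 and Pla2g4a overlapped between libraries and the others did not. In WT the order was Ptgs2 (359 ± 16.5), Ptgs1 (152 ± 3.50), Pla2g4a (81.0 ± 3.57), Ptgis (29.8 ± 0.744), Ptges (29.2 ± 0.573), Ptges2 (5.68 ± 0.579), Ptger4 (5.19 ± 0.335) and Hpgd (1.25 ± 0.282). Ptgis and Ptges overlapped there, as did Ptges2 and Ptger4. SIRT5F101L libraries had Ptgs2 at 383 ± 33.9, Ptgs1 at 150 ± 4.30 and Pla2g4a at 84.1 ± 4.34, then Ptges (31.5 ± 1.84) and Ptgis (28 ± 1.64), which overlapped, and Ptges2 (5.55 ± 0.728) and Ptger4 (5.19 ± 0.350), which overlapped too, with Hpgd at 1.27 ± 0.343. Ptgs2 stood at rank 6635 of 14080 genes by this level in control, 146 in WT and 118 in SIRT5F101L. Hpgd stood at rank 1280 in control and at 10781 and 10784 in the other groups.

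**Figure D3:**
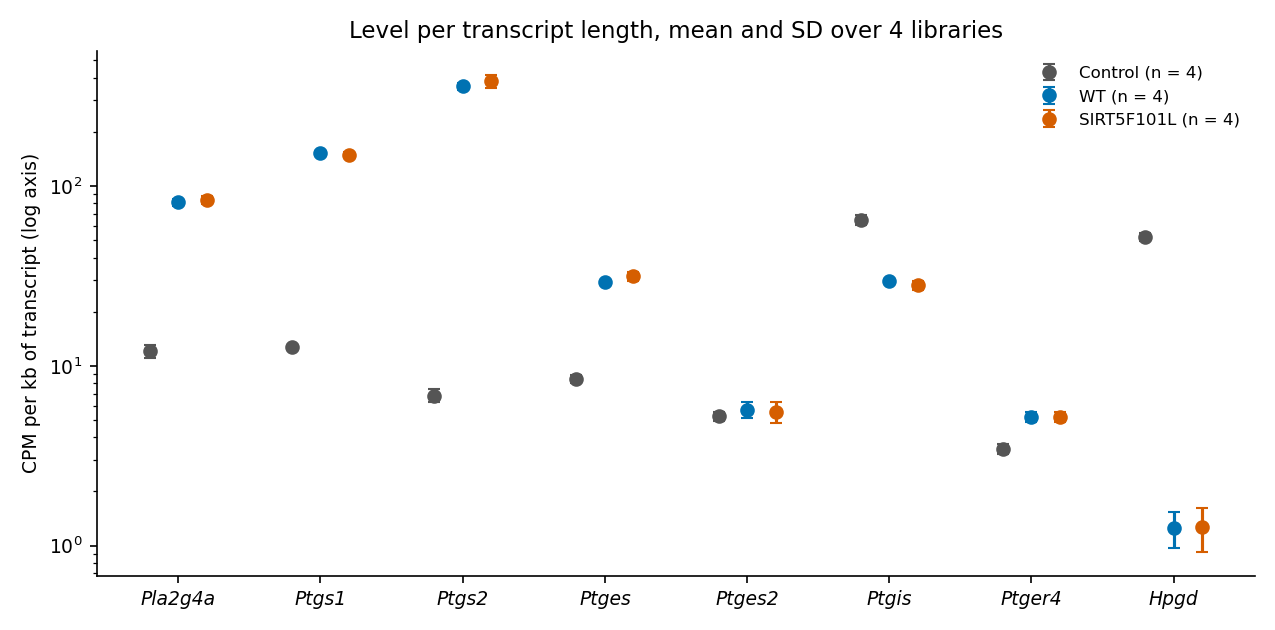
Level of 8 prostaglandin genes in CPM per kb of the longest transcript (log axis), as mean and SD over 4 libraries, for control, WT and SIRT5F101L. Ptgis and Hpgd are the highest in control, at 65.1 and 52.0, and Ptgs2 is the highest in WT and SIRT5F101L, at 359 and 383.

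Because Ptgs2 and Ptges rose while Hpgd fell, the sequences at their transcription starts are shown, from RefSeq on GRCm38.p6, which is not the GRCm39 build named for the counts. The windows run from 250 bases before the start to 50 after it. They lie at chr1:150099781-150100080 on the plus strand for Ptgs2, chr2:30903248-30903547 on the minus strand for Ptges and chr8:56294302-56294601 on the plus strand for Hpgd. Capitals mark matches, on either strand, to any of 7 motifs.
Ptgs2: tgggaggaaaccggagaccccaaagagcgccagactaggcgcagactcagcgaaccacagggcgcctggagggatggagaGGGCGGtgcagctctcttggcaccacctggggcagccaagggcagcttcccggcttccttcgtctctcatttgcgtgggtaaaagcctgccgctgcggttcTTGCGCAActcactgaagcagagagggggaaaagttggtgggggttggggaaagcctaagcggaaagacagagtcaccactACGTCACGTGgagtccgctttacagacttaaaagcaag
Ptges: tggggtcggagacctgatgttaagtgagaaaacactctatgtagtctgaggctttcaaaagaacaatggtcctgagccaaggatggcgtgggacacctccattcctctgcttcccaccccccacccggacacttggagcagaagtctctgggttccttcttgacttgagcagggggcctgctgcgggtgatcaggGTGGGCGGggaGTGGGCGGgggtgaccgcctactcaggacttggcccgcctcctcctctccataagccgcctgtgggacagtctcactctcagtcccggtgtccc
Hpgd: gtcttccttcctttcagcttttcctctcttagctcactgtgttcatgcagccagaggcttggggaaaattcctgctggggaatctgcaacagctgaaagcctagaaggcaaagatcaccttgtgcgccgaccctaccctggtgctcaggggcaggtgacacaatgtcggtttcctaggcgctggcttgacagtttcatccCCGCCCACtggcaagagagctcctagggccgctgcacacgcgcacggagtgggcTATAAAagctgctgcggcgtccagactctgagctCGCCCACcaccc

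The motifs were the cyclic AMP response element core TGACGT, the E-box CACGTG, the C/EBP palindrome TTGCGCAA, the EGR1 core GTGGGCG, the GC box GGGCGG, the NF-kB consensus and the TATA box TATAAA. In the Ptgs2 window the C/EBP palindrome begins 69 bases before the start and a GC box 170 bases before it, and the cyclic AMP element core on the other strand overlaps the E-box after the start. In the Ptges window the EGR1 core occurs 55 and 44 bases before the start, and each copy overlaps a GC box. The Hpgd window holds the EGR1 core on the other strand, once overlapping a GC box 50 bases before the start and once after the start. It also holds the letters TATAAA after the start. All positions are counted from the RefSeq start, and where transcription begins in these cells was not tested. Of 32851 windows of this length in the table, 0.183% hold the C/EBP palindrome, 7.51% the cyclic AMP element core, 7.15% the E-box, 7.97% the EGR1 core, 35.7% the GC box, 13.6% the TATA box and 5.8% the NF-kB consensus. The table had windows for 8 of the 9 members, not for Ptgis. Windows of the other members did not separate by direction of change. Ptgs1, which rose, had no match, and neither did Ptger2. Pla2g4a, which rose too, had only a TATA box match. Ptger4, which rose, had only GC boxes, and Ptges2, which was not called, had an E-box. The NF-kB consensus matched in none of the members' windows, which says only that its letters are not there, and the other matches describe letters too, not binding.

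Genes with the profile most like a member's were found by Pearson's r of log2 CPM over the 12 libraries, as a description. Only genes averaging at least 5 CPM, and without the symbol of a predicted gene, were compared. All 12 libraries share the control-to-labelled contrast, and 279 of 9762 genes had r above 0.99 with Ptgs2. The highest were Errfi1 (0.9994), which encodes a feedback inhibitor of the EGF receptor, and Hspa4l (0.9993) and Hsph1 (0.9992), which encode heat shock proteins. For Ptges they were the chemokine gene Cxcl1 (0.9994), the cytokine gene Il6 (0.9981) and the stromelysin gene Mmp3 (0.9978), with 199 genes above 0.99. For Hpgd they were Rspo2 (0.9970), Kctd12 (0.9968) and Adamts2 (0.9967), with 73 above 0.99.

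The rest of the pathway was followed through 8 further lists, described by counts beside the 56.8% (WT) and 60.7% (SIRT5F101L) of all genes called. Of 22 genes for arachidonate supply 14 were tested, and 2 rose and 8 fell in each group, with a median log2 fold change of -0.24 and -0.23. Pla2g7, a lipoprotein-associated phospholipase, rose (1.52 and 1.49), as did Lpcat3 (0.56 and 0.59), which puts arachidonate into phospholipids. Pla2g5 (-1.25 and -1.51), Plaat3 (-0.84 and -0.87) and Mgll (-0.57 and -0.55), which cleaves monoacylglycerols, fell. Here and below, paired values are log2 fold changes in WT and SIRT5F101L. Anxa1, Pla2g2a, Pla2g4b and Acsl4, which lies on X, were listed at 0. Most of the called genes of this list thus fell, while Pla2g4a rose.

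Of 7 other prostanoid synthases 5 were tested. In WT 0 rose and 3 fell, and in SIRT5F101L 1 rose and 3 fell. Hpgds, for a prostaglandin D synthase (-1.62 and -1.82), Prxl2b, for a prostaglandin F synthase (-0.85 and -0.96), and Cbr1, a carbonyl reductase (-0.36 and -0.51), fell. Ptges3, the cytosolic prostaglandin E synthase also known as the chaperone p23, was at 119 ± 8.51 CPM (SD, n = 4) in control, 118 ± 5.23 in WT and 117 ± 11.6 in SIRT5F101L. Tbxas1, for thromboxane synthase, rose by the test in SIRT5F101L (0.79, edgeR adjusted p 0.0244) and had an edgeR adjusted p of 0.0546 in WT (0.68), a pair of results whose difference was 0.11 and not called. Ptgds and Akr1b3 were listed at 0.

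Of 8 other prostanoid receptors 4 were tested. Ptgir, the prostacyclin receptor, rose from 7.09 ± 0.984 to 16.0 ± 0.864 and 15.3 ± 1.24 CPM (1.17 and 1.12), while the synthase gene Ptgis fell. Pparg, a nuclear receptor that binds prostaglandin D metabolites, fell from 18.6 ± 0.945 to 4.6 ± 0.468 and 4.70 ± 1.02 CPM (-2.01 and -1.98). Tbxa2r, the thromboxane receptor, fell too, from 1.46 ± 0.445 CPM to 0.346 ± 0.255 and 0.220 ± 0.159. Ptgfr fell by the test in WT (-0.74, edgeR adjusted p 0.0446) and had an edgeR adjusted p of 0.727 in SIRT5F101L (-0.13), and the difference between those groups was 0.62 and not called (edgeR adjusted p 0.431). Ptger3 had at most 14 counts in a library and was not tested, and Ptger1 and Ptgdr were listed at 0, so Ptger4 was the 1 prostaglandin E2 receptor that could be tested.

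Genes for transport and breakdown of prostaglandins did not all follow Hpgd. Of 8, all tested, 6 rose and 0 fell in WT, and 6 rose and 1 fell in SIRT5F101L (median 0.62 and 0.61). Slco2a1, the prostaglandin transporter that carries prostaglandins into cells for breakdown, rose from 59.8 ± 5.68 to 155 ± 7.55 and 160 ± 6.80 CPM (1.37 and 1.42). Slco3a1, a relative that also carries prostaglandins, rose (1.90 and 1.93). Akr1c18, an aldo-keto reductase, rose from 0.383 ± 0.11 to 5.30 ± 0.399 and 6.24 ± 1.25 CPM (3.79 and 4.02). Ptgr1, a reductase that acts after 15-hydroxyprostaglandin dehydrogenase, rose as well (0.74 and 0.61).

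Signalling from EP2 and EP4 runs through Gs, adenylyl cyclases and protein kinase A. Of 28 such genes 27 were tested, and 15 rose and 5 fell in each group, with a median of 0.31 and 0.33. Rapgef4, for the cyclic AMP sensor EPAC2, rose (2.72 and 2.76), as did the cyclic AMP phosphodiesterase genes Pde4d (1.75 and 2.10) and Pde4b (1.71 and 1.90). Adcy5 (-1.71 and -0.80), for an adenylyl cyclase, and Arrb2 (-0.43 and -0.70), for a beta-arrestin, fell. Gnas, for the Gs alpha subunit, fell from 49.2 ± 2.11 CPM to 28.2 ± 1.46 in WT (-0.80, edgeR adjusted p 4.61e-09) and 20.7 ± 0.706 in SIRT5F101L (-1.25, edgeR adjusted p 5.40e-12). It was also the 1 gene of these pathway lists called between SIRT5F101L and WT (-0.45, SE 0.07, edgeR adjusted p 0.0339), with no overlap between those groups. That call was lost with the 8 libraries compared alone (-0.45, edgeR adjusted p 0.144), while the log2 difference stayed between -0.48 and -0.42 under all 19 alternatives. Leaving out any 1 library other than control replicate 2 or SIRT5F101L replicate 1 gave an edgeR adjusted p of 0.0515 to 0.242. Without SIRT5F101L replicate 1 it was 0.000135. Of Gnas exon sequence, 22% is shared with genes on the other strand.

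Genes known to respond to cyclic AMP were mostly higher. Of 14, 13 were tested, and 10 rose and 1 fell in each group (84.6% called), with a median of 1.37 and 1.56. Il6, for interleukin-6 (5.50 and 5.82), Tnfsf11, for the osteoclast factor RANKL (4.76 and 4.97), and the nuclear receptor gene Nr4a2 (3.31 and 3.31) rose most in WT among genes averaging at least 1 CPM. Fos fell (-0.75 and -0.75). These genes answer to other signals as well, and their source of change was not tested.

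Among 27 inducers and regulators of Ptgs2 and Ptges, 23 were tested, with 13 higher and 5 lower in WT and 12 higher and 5 lower in SIRT5F101L (median 0.31 and 0.26). Nfkbiz, for an NF-kB cofactor (2.65 and 2.81), Cebpd, for the transcription factor C/EBP delta (1.34 and 1.23), and Tlr4, for the endotoxin receptor (1.1 and 1.19), rose. Il1rn, for the interleukin-1 receptor antagonist (-0.74 and -0.67), and Il1r1, for the interleukin-1 receptor (-0.65 and -0.43), fell. Egr1, for the zinc finger factor whose core is in both the Ptges and the Hpgd window above, fell too (-0.60 and -0.26). Of the cytokine genes in this list, Il1a had at most 3 counts in a library, Il1b at most 7 and Tnf at most 19, and none of them passed the filter. Myd88 was listed at 0.

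**Figure D4:**
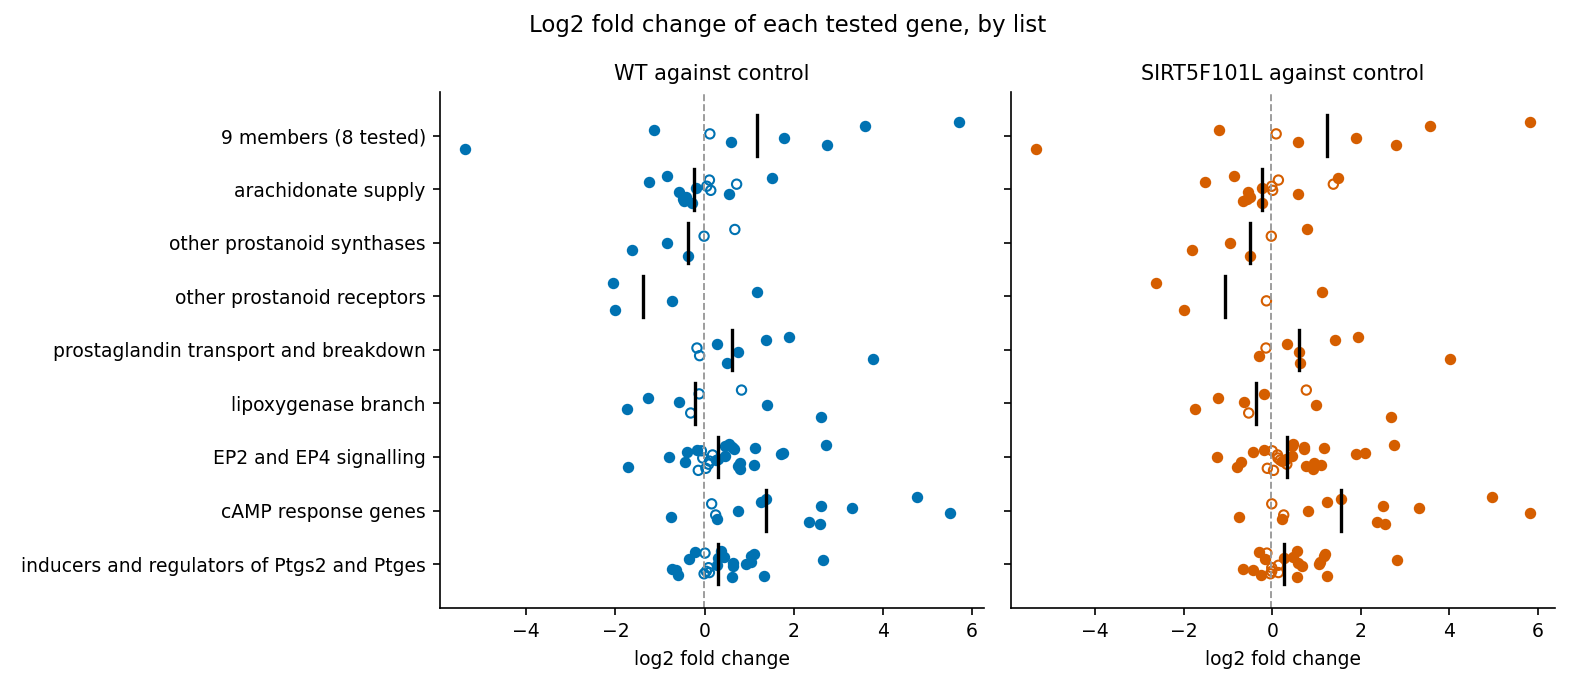
Log2 fold change against control of each tested gene in 9 lists, for WT (left) and SIRT5F101L (right); filled points have an edgeR adjusted p under 0.05, open points do not, black bars are list medians and the dashed line is the median of all tested genes. The list of cyclic AMP response genes has a median of 1.37 in WT and 1.56 in SIRT5F101L, and that of arachidonate supply genes -0.24 and -0.23.

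Markers of the labelled cell type and of other cell types were counted beside the same 56.8% and 60.7% of all genes called. The share of tested markers called was 100% and 92.3% for chondrocytes in WT and SIRT5F101L, and in each group 100% for macrophages and leukocytes, 100% for fibroblasts, 50% for osteoblasts, 33.3% for osteoclasts and 20.0% for endothelial cells, so the last 3 lists were below the share over all genes. The 13 chondrocyte markers, all tested, summed to 9337 to 11710 CPM in control, 2854 to 2969 in WT and 2323 to 2569 in SIRT5F101L, and 11 of them were lower in each group. Hapln1, for a link protein of the matrix, was higher in both (0.25 and 0.18), and Acan, for aggrecan, was higher in WT (0.47) and not called in SIRT5F101L (0.10, edgeR adjusted p 0.243), a difference of -0.37 that was not called (edgeR adjusted p 0.0942). Col11a2, for a chain of type XI collagen, was lower in SIRT5F101L than in WT (16.8 ± 1.35 against 26.1 ± 1.67 CPM; SD, n = 4; log2 difference -0.63, edgeR adjusted p 0.0339), with no overlap. Its difference was -0.66 to -0.58 under the same 19 alternatives, and leaving out any 1 library other than control replicate 2 or SIRT5F101L replicate 1 gave an edgeR adjusted p of 0.0515 to 0.167. Of 12 macrophage and leukocyte markers 9 were tested, with 7 lower and 2, Cd14 and Ly6g, higher in each group. They summed to 68.9 to 80.6 CPM in control, 80.0 to 86.3 in WT and 87.5 to 109 in SIRT5F101L. Within that sum Cd14 went from 12.4 to 51.3 and 59.8 CPM, while Adgre1 went from 7.30 to 1.78 and 1.93 CPM and Csf1r from 16.2 to 8.53 and 9.89 CPM, and Itgam and Cd3e were among those listed at 0. Fibroblast markers (8, of which 7 tested) summed to 30070 to 35980, 10910 to 12150 and 10750 to 11910 CPM, with 5 lower and 2 higher in each group. Endothelial markers (9, of which 5 tested) summed to 6.45 to 7.51, 6.84 to 9.04 and 7.67 to 9.07 CPM, with 1 higher and 0 lower. Osteoblast markers (6, of which 4 tested) summed to 61.1 to 70.5, 40.6 to 52.2 and 38.9 to 61.1 CPM, with 2 lower in each group. Osteoclast markers (6, of which 3 tested) summed to 415 to 469, 295 to 345 and 262 to 337 CPM, nearly all from Ctsk, with 1 lower and Acp5 listed at 0. The part of any of these in the prostaglandin results was not tested.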

How the data were processed

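The members, lists, alternatives and rules were chosen with earlier results of these data known. The authors deposited 1 table of raw read counts per Ensembl gene ID for each library. Per the submitters' processing notes, FastQC 0.11.9, HISAT2 2.2.1, HTSeq 2.0.2 and DESeq2 1.38.3 were used with the build GRCm39. The strand setting and annotation are not given in the sources used here. Per the labels' protocols, reads were 150 bp and paired.

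Counts were tested with edgeR (4.0.16, R 4.3.3): TMM scaling, its default filter, the quasi-likelihood model with 3 group means over all 12 libraries, 2-sided tests and Benjamini-Hochberg adjustment over 14253 genes. SE is the log2 fold change without its sign, divided by the square root of F. DESeq2 (1.42.0) was an alternative. A count of 3 was the floor, worth 0.120 to 0.195 CPM, and it covers counting error only. Transcript lengths and exon overlaps came from GENCODE M21. Symbols came from a table of Ensembl names, with Plaat3, Prxl2b and Ptgr3 matched by older symbols. Named list genes were the 3 highest and 3 lowest in WT among those called in both groups. Only genes without overlap with control and averaging at least 1 CPM were eligible. Any list gene called between SIRT5F101L and WT was added. Other genes were named to complete a family, or because they were listed at 0 or had low counts, after their values were seen. The procedure was also run on simulated counts with far fewer and smaller changes than these data show, so that run does not test it under such wide change. No 2 libraries were identical, and within groups their counts differed by 2.56 to 8.92 times sampling noise.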

Additional observations from a re-analysis of the deposited data

Results flagged for a closer look

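In groups of 4, 135 sets of values were screened for a library far from the other 3, by the ratio of its gap to the whole range. The screen found 7, and chance, at 1 group in 20, gives 6.75. Among the members, Ptgs2 was at 1710 CPM in WT replicate 1, against 1550 to 1570 in the other WT libraries, and Ptges2 was at 33 CPM in SIRT5F101L replicate 1, against 25.3 to 26.1. Among other genes, WT replicate 1 had 4.19 CPM of Pla2g7, against 4.74 to 4.84, and 119 CPM of Pde4d, against 90.6 to 94.5. Control replicate 3 had 3.36 CPM of Hpgds, against 2.67 to 2.79. SIRT5F101L replicate 3 had 17.2 CPM of Ptgir, against 14.6 to 14.7, and SIRT5F101L replicate 1 had 21.7 CPM of Gnas, against 20.2 to 20.4.

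Gnas differed between SIRT5F101L and WT by the test of the difference itself (-0.45 on the log2 scale, edgeR adjusted p 0.0339). Its adjusted p ran from 3.90e-05 with DESeq2 to 0.242 with edgeR without WT replicate 3, with a log2 difference of -0.44 and -0.42. Col11a2, a chondrocyte marker, differed in the same way (-0.63, edgeR adjusted p 0.0339).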

How the results depend on the processing

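Each comparison was repeated under 19 alternatives: RLE and upper-quartile scaling, other low-count filters, a robust prior, the 8 libraries compared alone, DESeq2, and each of the 12 libraries left out. The number of members called was 7, 7 and 0 in every one. Between SIRT5F101L and WT, 10 of the 12 fits with a library left out called 0 genes in all, so the 0 members there says nothing of stability, and the fit without SIRT5F101L replicate 1 called 2213. Of 456 fold changes of members, 441 kept their direction and side of the threshold, 0 changed side and 15 changed sign. Those 15 were for differences of at most 0.09 in size in the main fit of all 12 libraries, which were not called. Between SIRT5F101L and WT, Ptger4 was at 0.00 under RLE scaling, upper-quartile scaling, a filter at a mean of 1 CPM and DESeq2. Leaving out 1 library gave -0.04 to 0.04 for Ptger4, -0.10 to 0.19 for Hpgd and -0.13 to 0.04 for Ptges2 in that comparison, and -0.01 to 0.13 for Ptges2 between SIRT5F101L and control. The cause was not tested. Leaving out 1 library gave 5.68 to 5.77 for Ptgs2 and -5.51 to -5.28 for Hpgd in WT against control. With RLE scaling 0 of 24 group means moved by more than 1 SD. Depth limits Hpgd most, at 24 to 66 counts in the labelled groups. No library number pairs samples in the labels, so no paired fit was made.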

Other observations

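The lipoxygenase branch, which turns arachidonic acid into leukotrienes and hydroxy fatty acids instead of prostaglandins, gave a mixed picture. Of 14 genes 8 were tested, with 2 higher and 3 lower in WT and 2 higher and 4 lower in SIRT5F101L. The list also holds the epoxide hydrolase genes Ephx1 and Ephx2, which are not lipoxygenase genes. Both are among the lower genes in each group. Alox12, for a 12-lipoxygenase, rose from 2.58 ± 0.281 CPM (SD, n = 4) in control to 15.9 ± 1.64 in WT and 16.6 ± 1.12 in SIRT5F101L (log2 fold change 2.62 and 2.68, edgeR adjusted p 3.13e-13 and 1.91e-13). Alox5ap, for the protein that activates 5-lipoxygenase, fell from 1.06 ± 0.247 to 0.306 ± 0.307 and 0.301 ± 0.0893 CPM. Ephx2, for soluble epoxide hydrolase, fell from 7.13 ± 0.192 to 2.97 ± 0.905 and 3.03 ± 0.809 CPM (-1.27 and -1.23), and Ephx1 fell by 0.57 and 0.63 on the log2 scale. The cysteinyl leukotriene synthase gene Ltc4s had at most 2 counts in a library and was not tested.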
